A study of Homo sapiens with 6 samples.

Results

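A set of 10 regulators of the amino acid and integrated stress response, namely ATF4, ATF3, ATF5, DDIT3, TRIB3, CEBPB, CEBPG, SESN2, NUPR1 and PPP1R15A, were followed in nephron progenitor cultures grown with or without glutamine. They were chosen by name, and each matched 1 Ensembl identifier, giving 10 of the 60107 identifiers in the count table. All 6 libraries were mRNA libraries from H9 cells, an established line of human embryonic stem cells, collected on day 9 of differentiation toward nephron progenitors. Complete medium with glutamine was used for 3 of them, and medium deprived of glutamine from the first day of differentiation for the other 3. The source of the cells, the differentiation protocol and the day of collection were shared by both groups. H9 is a single line, and the labels do not say whether the libraries of a group came from separate cultures, so p-values measure only the spread between these libraries.

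Cells that run short of an amino acid, or that accumulate unfolded protein in the endoplasmic reticulum, phosphorylate the initiation factor eIF2alpha. Most translation then slows, while that of ATF4, a transcription factor of the basic leucine zipper family, increases through upstream reading frames in its mRNA. ATF4, together with C/EBP partners, activates genes for amino acid uptake and synthesis and a second tier of regulators that extend or shut off the response. RNA sequencing reads mRNA levels and not the translation step.

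The libraries held 78220507 to 84746566 counts, and replicate 1 with glutamine stood apart from its group. Expression is given as CPM, counts scaled to a common library total. Genes are not independent replicates; across them, Pearson's r of log2 CPM was 0.9758 and 0.9762 between that library and the other two with glutamine. It was 0.9908 to 0.9927 between that library and the libraries without. Results are therefore given with and without it. The column headings of the table name days 0 and 9, whereas the labels place every sample at day 9 and assign the first heading to cells with glutamine, and each direction rests on that assignment. Every one of the 13 nephron progenitor and intermediate mesoderm markers reached 1 CPM in some library. Their summed level was 1050 to 1700 CPM with glutamine, highest in replicate 1, and 1590 to 2120 CPM without. The 7 somite markers summed to 45.4 to 160 CPM with and 41.3 to 68.8 without, with replicate 1 with glutamine at 45.4. The 5 endothelial and blood markers summed to 26.4 to 85.4 CPM with and 14.1 to 19.3 without, again with replicate 1 lowest in its group at 26.4. Pluripotency markers, mostly DPPA4, summed to 140 to 203 CPM with and 233 to 295 without, and smooth muscle and stromal markers to 206 to 278 with and 264 to 415 without. Neural markers stayed at or under 6.42 CPM and endoderm markers at or under 2.36 CPM in each library, and no list held a gene at 0 in every library. The part of these marker levels in the results was not tested, and in bulk RNA fewer cells of a type and less RNA per cell cannot be told apart.

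Of the 10 regulators, 9 passed the filter on low counts, and overlap between the groups alone split them into 2 sets. ATF5, CEBPB, ATF4, SESN2 and CEBPG were higher in each library without glutamine than in any library with it, by 1.20-fold to 2.12-fold. PPP1R15A, ATF3, DDIT3 and TRIB3 overlapped between the groups. In edgeR's quasi-likelihood test none of the 9 had a Benjamini-Hochberg adjusted p under 0.05, a threshold that 0.00442% of all 22613 genes tested passed. At an adjusted p under 0.1, 5 of 9 were higher without glutamine and 0 lower. Over all genes 14.5% passed that threshold, 7.3% higher and 7.23% lower. This count was not stable to the loss of a library: it was 6 of 9 without replicate 1 with glutamine, where 49.3% of all genes passed and TRIB3, lower, joined the 5, 1 without replicate 1 of the deprived group, where 0.223% did, and 0 when any one of the other 4 libraries was left out, where 0% did. For the same 5 every library without glutamine was above every library with it, as in 17.3% of all genes, and the reverse held for 0 members and 16.9% of all genes. The median log2 fold change of the 9 was 0.26, beside 0.001 over all genes. At an unadjusted p under 0.05 in edgeR the members higher without glutamine numbered 5, against 14.7% of all genes, and 0 were lower, against 15%. DESeq2 called 3 members at an adjusted p under 0.05, each higher, where it called 7.38% of all genes higher.

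**Figure D1:**
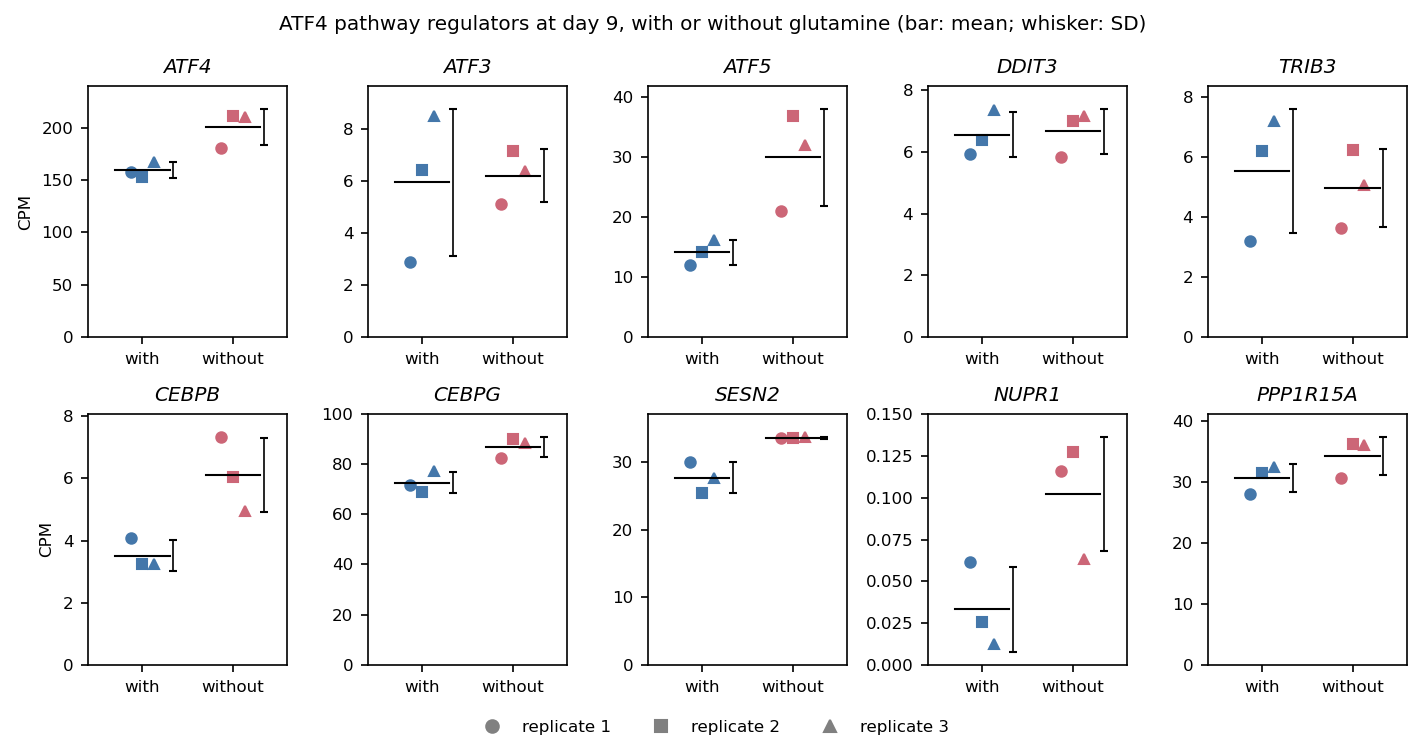
Level of each regulator in CPM (vertical axis from 0) in the 3 libraries with and the 3 without glutamine. Symbols mark the replicate number, horizontal bars the mean and whiskers 1 SD. ATF4, ATF5, CEBPB, CEBPG and SESN2 are higher in each library without glutamine, while ATF3, DDIT3, TRIB3 and PPP1R15A overlap.

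ATF4, the effector at the centre of the response, lies on chromosome 22 at 39519695 to 39522685 on the plus strand (ENSG00000128272, GENCODE 29 on GRCh38, as for the positions below). It had 158, 152.8 and 167.5 CPM with glutamine, in replicate order, against 180.8, 210.9 and 210.4 CPM without. Every library without glutamine was above every library with it, and replicate 1 with glutamine lay inside its own group. The means were 159.4 ± 7.45 and 200.7 ± 17.2 CPM (SD, n = 3), and the log2 fold change was 0.33 ± 0.08 (SE; adjusted p from edgeR 0.0772). DESeq2 gave an adjusted p of 0.0342, and without replicate 1 with glutamine edgeR gave a log2 fold change of 0.33 at an adjusted p of 0.0128. Of 4 annotated ATF4 pseudogenes, 2 had no count and the others had at most 31 counts in a library, against at least 11933 for ATF4.

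ATF5, a relative of ATF4 whose translation is also raised by eIF2alpha phosphorylation and which is linked to mitochondrial stress, showed the largest fold change of the 9. It had 12.1, 14.2 and 16.2 CPM with glutamine, in replicate order, against 21.0, 36.9 and 32.0 CPM without. The lowest library without glutamine, replicate 1, was above the highest with it. The log2 fold change was 1.08 ± 0.21 (SE; adjusted p from edgeR 0.0689), or 2.12-fold, and its 95% interval ran from 0.58 to 1.59. It was 0.98 without replicate 1 with glutamine (edgeR adjusted p 0.0035), and DESeq2 gave an adjusted p of 5.95e-05. The ATF5 gene (ENSG00000169136, chromosome 19, 49928702 to 49933935, plus strand) shares 626 exonic bases with NUP62 on the other strand. NUP62 had a log2 fold change of -0.03 (edgeR adjusted p 0.813), and since the strand setting of the counting is not stated, reads of the shared stretch cannot be assigned.

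The C/EBP members, basic leucine zipper proteins that pair with ATF4, were both higher without glutamine, by different amounts. CEBPB had 4.08, 3.24 and 3.23 CPM with glutamine, in replicate order, against 7.35, 6.04 and 4.97 CPM without. Replicate 1 was the highest library of each group, and the groups did not overlap. Its log2 fold change was 0.80 ± 0.18 (SE; adjusted p from edgeR 0.0721), or 1.74-fold, and 0.92 without replicate 1 with glutamine (edgeR adjusted p 0.00198). DESeq2 gave CEBPB an adjusted p of 0.00152. CEBPB (ENSG00000172216, chromosome 20, 50190734 to 50192689, plus strand) shares 231 exonic bases with its antisense RNA CEBPB-AS1, which had 64 to 128 counts in a library against 253 to 632 for CEBPB. CEBPG, a partner that lacks an activation domain of its own, was at 71.8, 68.7 and 77.1 CPM with glutamine and at 82.4, 89.9 and 88.5 CPM without. Its groups also did not overlap, at a log2 fold change of 0.26 ± 0.08 (SE; adjusted p from edgeR 0.0887), or 1.20-fold. DESeq2 did not call it, at an adjusted p of 0.0847, and without replicate 1 with glutamine edgeR gave 0.0251. Other C/EBP genes were low or overlapped: CEBPA stayed under 1 CPM in each library, though its groups did not overlap (log2 fold change 1.42, edgeR adjusted p 0.0822). CEBPD was at 0.563 to 2.43 CPM and overlapped.

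SESN2, a leucine-binding inhibitor of mTORC1 signalling and a target of ATF4 and p53, had 29.95, 25.4 and 27.65 CPM with glutamine, in replicate order, against 33.5, 33.5 and 33.8 CPM without. These 3 values were close together and above each library with glutamine, of which replicate 1 came nearest. The log2 fold change was 0.28 ± 0.09 (SE; adjusted p from edgeR 0.0948), or 1.21-fold, and 0.34 without replicate 1 with glutamine (edgeR adjusted p 0.00519). DESeq2 gave 0.0716. Of the other sestrins, SESN1 overlapped between the groups at a log2 fold change of 0.055 (edgeR adjusted p 0.712). SESN3 had one of -0.55, with each library without glutamine lower (edgeR adjusted p 0.0721). SESN3 was at 396.4, 534.4 and 513.2 CPM with glutamine and at 335.4, 300.1 and 351.9 without.

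The members tied to cell death and to feedback overlapped between the groups, and neither edgeR nor DESeq2 called them at an adjusted p under 0.05. In edgeR with all 6 libraries no other member passed that threshold either. DDIT3, which encodes the transcription factor CHOP, had 5.94, 6.39 and 7.34 CPM with glutamine, in replicate order, against 5.84, 7.01 and 7.16 CPM without. The 2 ranges nearly coincided. The log2 fold change was 0.02 ± 0.14 (SE; adjusted p from edgeR 0.922), with a 95% interval from -0.30 to 0.34, so a 2-fold change in either direction lay outside it. DDIT3 (ENSG00000175197, chromosome 12, 57516588 to 57521737, minus strand) shares 355 exonic bases with MARS on the other strand. MARS, the methionyl-tRNA synthetase, had 11694 to 13641 counts in a library against 482 to 577 for DDIT3, and reads of the shared stretch cannot be assigned without the strand setting.

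TRIB3, a pseudokinase that DDIT3 and ATF4 induce and that holds both back, had the same kind of overlap. It had 3.20, 6.18 and 7.19 CPM with glutamine, in replicate order, against 3.64, 6.22 and 5.05 CPM without. Replicate 1 was the lowest of each group. The log2 fold change was -0.15 ± 0.32 (SE; adjusted p from edgeR 0.769), with a 95% interval from -0.91 to 0.60, and -0.43 without replicate 1 with glutamine (edgeR adjusted p 0.0982). With all 6 libraries the interval was wider than that of DDIT3, and both signs stayed inside it. Without replicate 1 with glutamine the interval ran from -0.856 to -0.004, just below 0. The other tribbles genes were both higher without glutamine and did not overlap: TRIB1 was at 22.6 to 34.1 CPM with and 44.9 to 52.1 without (log2 fold change 0.85, edgeR adjusted p 0.0689). TRIB2 was at 93.9 to 97.4 CPM with and 110.1 to 119.7 without (log2 fold change 0.26, edgeR adjusted p 0.0747). Among all 14 relatives tested, including those of ATF4, C/EBP and sestrins, 3 were higher and 2 lower at an adjusted p under 0.1 in edgeR, where 7.3% and 7.23% of all genes were. The lower ones were SESN3 and ATF7, a relative of ATF4 in the same family (log2 fold change -0.31, edgeR adjusted p 0.0893). Without replicate 1 with glutamine 5 were higher and 5 lower at an adjusted p under 0.05 in edgeR, a fit that called 22.3% of all genes higher and 19% lower.

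ATF3, mostly a repressor, induced early in many stresses, had 2.90, 6.44 and 8.49 CPM with glutamine, in replicate order, against 5.13, 7.13 and 6.37 CPM without. The libraries with glutamine spanned those without on both sides, because replicate 1 was the lowest of all 6 and replicate 3 the highest. The log2 fold change was 0.06 ± 0.35 (SE; adjusted p from edgeR 0.917), and its 95% interval, from -0.77 to 0.90, was the widest of the 9. Without replicate 1 with glutamine it was -0.27 (edgeR adjusted p 0.215). PPP1R15A, also called GADD34, directs a phosphatase to eIF2alpha and so ends the translational block. It had 28.1, 31.4 and 32.5 CPM with glutamine, in replicate order, against 30.6, 36.1 and 36.0 CPM without. Replicate 1 without glutamine fell among the libraries with it, while the other two lay above. The log2 fold change was 0.16 ± 0.10 (SE; adjusted p from edgeR 0.317), with a 95% interval from -0.08 to 0.39, and 0.10 without replicate 1 with glutamine (edgeR adjusted p 0.398). The interval with all libraries holds the log2 fold changes of CEBPG (0.26) and SESN2 (0.28). Its constitutive counterpart PPP1R15B had a log2 fold change of -0.01.

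NUPR1, a small chromatin-associated stress protein, was close to undetected. It had 5, 2 and 1 counts in replicates 1, 2 and 3 with glutamine and 10, 10 and 5 without, at most 0.128 CPM, and did not pass the filter. No fold change is given at that depth.

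**Figure D2:**
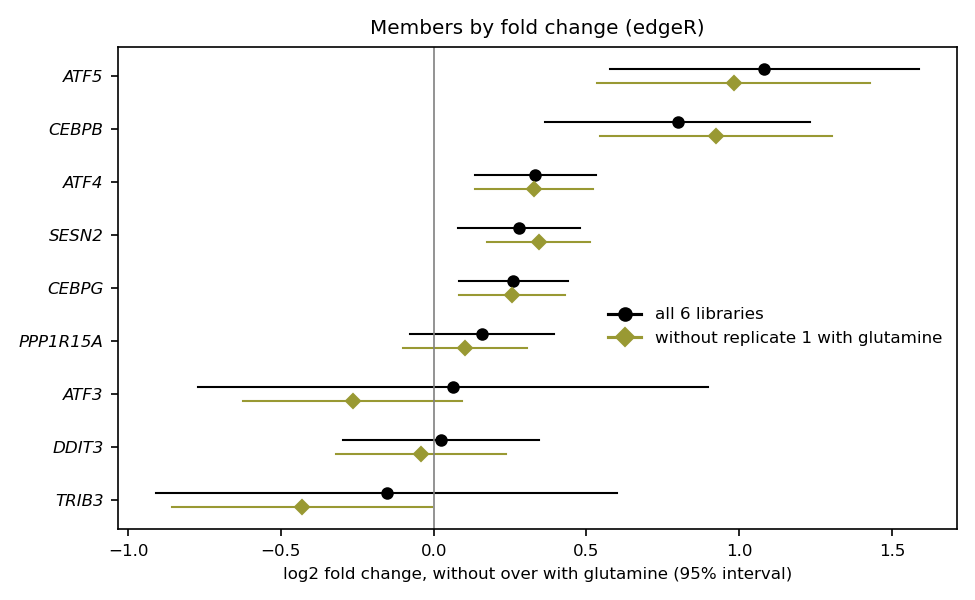
Log2 fold change of the 9 regulators tested (horizontal axis, without over with glutamine) from edgeR, as a point with its 95% interval. Black circles use all 6 libraries and diamonds leave out replicate 1 with glutamine. The intervals of ATF5, CEBPB, ATF4, SESN2 and CEBPG lie above 0 in both, and that of ATF3 is the widest with all libraries. That of TRIB3 spans 0 with all libraries and lies just below 0 without replicate 1 with glutamine.

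Whether a member differed from ATF4 in its response was tested on the log2 ratio to ATF4 within each library (CPM + 0.5), by a two-sided exact permutation test over the 6 libraries. The test cannot go below 0.1 for 3 against 3, and the 8 p-values were adjusted together. The ratio of ATF5 to ATF4 was higher without glutamine in each library, by 0.70, whereas those of DDIT3 and PPP1R15A were lower in each library, with differences of -0.31 and -0.17. Each of these 3 reached the smallest p that the exact permutation test allows, 0.1, or 0.267 after adjustment. That value restates the lack of overlap. Because this test cannot pass 0.05 here, it does not decide whether a member differs from ATF4. The ratios of CEBPB, ATF3, TRIB3, CEBPG and SESN2 overlapped between the groups. For CEBPG and SESN2 the differences were -0.07 and -0.05. ATF4 itself had a log2 fold change of 0.33, so a gene with no change of its own has a lower ratio without glutamine. That of DDIT3 was 0.02, so its lower ratio says no more than that. The share of all genes whose ratio to ATF4 separated between the groups was not computed. As a description over 6 libraries, which share the 2 conditions, Pearson's r of log2 CPM to ATF4 was 0.98 for CEBPG, 0.98 for ATF5, 0.84 for SESN2, 0.83 for PPP1R15A and 0.66 for CEBPB. It was 0.47 for DDIT3, 0.35 for ATF3 and 0.14 for TRIB3. Among 10374 genes with a mean of at least 10 CPM, those most like ATF4 by this measure were TMED10 (r 0.9987), TXNDC15 (0.9984) and ATP6AP2 (0.9963).

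The 4 members that overlapped between groups, and ATF5, shared a second feature. Replicate 1 was the lowest library in both groups for ATF3, ATF5, DDIT3, TRIB3 and PPP1R15A, 5 of 9, against 15.7% of all genes. It was the highest in both groups for CEBPB, against 17.5% of all genes. Over all genes the same-numbered libraries did not deviate together, which does not settle whether they were paired. With the replicate number as a block in edgeR, the SE fell from 0.215 to 0.137 for ATF5. It fell from 0.32 to 0.178 for TRIB3, from 0.355 to 0.255 for ATF3 and from 0.184 to 0.133 for CEBPB. It also fell for DDIT3 (0.137 to 0.115), PPP1R15A (0.101 to 0.075) and ATF4 (0.084 to 0.079). For CEBPG (0.075 to 0.076) and SESN2 (0.085 to 0.086) it rose slightly. For members with the replicate 1 pattern a lower SE restates that pattern. The share of all genes with a lower SE was not computed. In the same fit the edgeR adjusted p rose for ATF4, ATF5, CEBPB, CEBPG and SESN2, to 0.129 to 0.144, and fell for the other 4.

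Between genes, levels were compared as CPM per kilobase of annotated exon. ATF4 was the most abundant of the 10 in both groups, at 63.4 ± 2.96 with glutamine and 79.8 ± 6.84 without (SD, n = 3). CEBPG came next, at 16.4 and 19.7, and neither overlapped its neighbour in the order. With glutamine PPP1R15A at 9.91 and SESN2 at 8.01 followed, then DDIT3 at 5.02 and ATF5 at 4.79, which overlapped each other. CEBPB, TRIB3 and ATF3 at 1.80, 1.61 and 1.47 overlapped one another, lay below each library of ATF5 and above NUPR1 at 0.00587. Without glutamine ATF5 stood at 10.1, where it overlapped PPP1R15A at 11.1 and SESN2 at 9.73 and no longer DDIT3 at 5.10. CEBPB at 3.13 then lay above ATF3 and TRIB3, at 1.54 and 1.45, which overlapped each other. Part of this order depended on the length used. With the longest annotated transcript in place of all exons, ATF5 without glutamine was at 14.5 and overlapped PPP1R15A at 14.4, but lay above each SESN2 value. With glutamine ATF5 at 6.84 then overlapped both SESN2 and DDIT3. ATF3 without glutamine was at 2.95 and overlapped CEBPB and TRIB3, and with glutamine it stood at 2.83 above TRIB3 at 2.21 and CEBPB at 1.80, which all overlapped in turn.

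**Figure D3:**
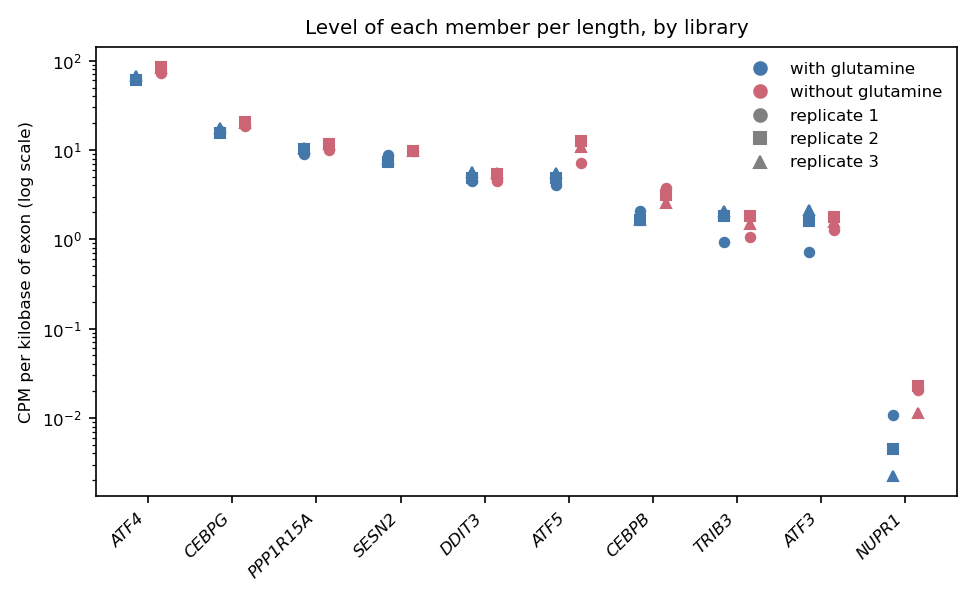
CPM per kilobase of annotated exon (vertical axis, log scale) of the 10 regulators in each library, ordered by their mean with glutamine. ATF4 is highest and NUPR1 lowest in both groups, and ATF5 is at the level of DDIT3 with glutamine and among PPP1R15A and SESN2 without, a placing that holds for this exon length and not for the longest transcript.

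Sequences from RefSeq (GRCh38.p14), from 250 bases before to 50 after a start site, were searched on both strands, since 5 members shared a direction. Of the 10 members 9 matched, with 18 windows. The letters TGATGNAA, the core of the C/EBP-ATF response element through which ATF4 acts, were in 2 of 18 windows, against 3.62% of 35116 windows of that length, and TGACGTCA, the cyclic AMP response element, in 1 of 18, against 1.85%. No match of one motif overlapped a match of the other. The matches, in capitals with 11 bases on each side, 5′ to 3′ on the plus strand, are shown because they fell in 1 member that was higher without glutamine and in 2 that overlapped:
CEBPG: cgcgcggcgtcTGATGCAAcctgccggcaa
ATF3: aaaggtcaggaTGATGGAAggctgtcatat
PPP1R15A: gcctctcttcgTGACGTCAgcacgccgggc
They lie at chr19:33374060-33374089, chr1:212565205-212565234 and chr19:48872352-48872381, with the first motif base at -42, -191 and -58 from the nearest listed start. These are matches of letters, and windows without a match say only that those letters are not in them.

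Genes on either side of ATF4 were then read from lists in the same edgeR fit. Upstream, the list held eIF2alpha kinases, their activators and inhibitors, eIF2alpha phosphatase subunits, and the eIF2 and eIF2B subunits. Its median log2 fold change, over genes of opposing action, was -0.07. At an adjusted p under 0.1 in edgeR, 7.3% of all genes were higher and 7.23% lower. In this list 1 of 19 was higher, DNAJC3, an inhibitor of the kinase PERK (0.50, edgeR adjusted p 0.0682). Lower was DELE1, which relays mitochondrial stress to the kinase HRI (-0.22, edgeR adjusted p 0.0868). The kinase of the amino acid arm, EIF2AK4 or GCN2, had a log2 fold change of -0.17 (edgeR adjusted p 0.214), and its activator GCN1, at 247.9 to 253.2 CPM with and 206.4 to 229.9 without, one of -0.20 (edgeR adjusted p 0.108). The protease OMA1, which cleaves DELE1, was at -0.37 (edgeR adjusted p 0.118). Of the other eIF2alpha kinases, EIF2AK2 was at -0.38 (edgeR adjusted p 0.109), EIF2AK3 at 0.14 (0.284) and EIF2AK1 at 0.07 (0.431). Without replicate 1 with glutamine, 2 genes of this list were higher and 8 lower at an adjusted p under 0.05 in edgeR, with a median of -0.16, where 22.3% of all genes were called higher and 19% lower.

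Downstream, ATF4 effector targets outside the 10 regulators had higher values without glutamine in 27 of 35 cases, as did 11343 of all 22613 genes tested. Of these 35, 16 were higher and 0 lower at an adjusted p under 0.1 in edgeR, where 7.3% and 7.23% of all genes were. Without overlap between groups 22 were higher, against 17.3% of all genes, and the median log2 fold change was 0.25. SLC7A11, a cystine transporter, was at 20.84, 17.87 and 19.03 CPM with glutamine and at 45, 53.22 and 48.78 without, with no overlap. Its log2 fold change of 1.35 ± 0.10 (SE) had an adjusted p of 0.0488 in edgeR, the 1 gene of this list and of all genes tested under 0.05. This call was lost under upper quartile scaling, library size only, limma-voom, legacy = TRUE and the replicate block, and when any one of replicates 2 and 3 of either group was left out. CHAC1, an enzyme that degrades glutathione, had a log2 fold change of 1.78 (edgeR adjusted p 0.0679), the mitochondrial folate enzyme ALDH1L2 one of 1.18 (0.0679) and ASNS, asparagine synthetase, one of 0.89 (0.0682). Several of these targets went the other way in value: DDIT4, an mTORC1 inhibitor, was at 49.3, 137.5 and 130.4 CPM with glutamine and at 54.0, 50.5 and 43.5 without (log2 fold change -1.10, edgeR adjusted p 0.104). VLDLR showed the same layout at -0.78 (edgeR adjusted p 0.144). In both, replicate 1 with glutamine lay at the level of the libraries without. Leaving that library out gave 17 targets higher and 5 lower at an adjusted p under 0.05 in edgeR, where 22.3% and 19% of all genes were. The same fit called 5 of the 9 regulators, all higher.

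Genes of the endoplasmic reticulum branch of the stress response, which act through ATF6 and XBP1 beside ATF4, had a median log2 fold change of 0.20. Of 19 tested, 6 were higher and 0 lower at an adjusted p under 0.1 in edgeR, beside 7.3% and 7.23% of all genes. The largest fold changes among those without overlap were in SDF2L1 (0.79, edgeR adjusted p 0.0706), CRELD2 (0.50, 0.0742), PDIA4 (0.44, 0.0721) and HERPUD1 (0.41, 0.0891), chaperones, folding enzymes or degradation factors of that compartment. HSPA5, its main chaperone, was at 442 to 502 CPM with and 460 to 607 without, and overlapped. Without replicate 1 with glutamine 7 were higher and 1 lower at an adjusted p under 0.05 in edgeR, beside 22.3% and 19% of all genes. XBP1 is listed at 0 in every library and gives no value.

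The regulators ATF3, SESN2 and DDIT3 also belong to other programmes. The list counts that follow use an adjusted p under 0.1 in edgeR, where 7.3% of all genes were higher and 7.23% lower. BBC3 and TNFRSF10B are on the lists of p53 targets and of death genes linked to DDIT3, so counts of those lists share genes. DDIT4 is on the death gene list and among the ATF4 effector targets. Of 15 immediate early genes, 5 were higher and 0 lower at an adjusted p under 0.1 in edgeR (median log2 fold change 0.29), led by CCN2 (2.04), CCN1 (1.11), IER3 (0.81) and DUSP1 (0.64). CCN1 and CCN2 are also targets of other pathways. Of 15 p53 targets, 3 were higher and 0 lower (median 0.055): CDKN1A, which halts the cell cycle, at 0.96, PHLDA3 at 0.74 and TP53I3 at 0.62. CCNG1, another p53 target, was lower without overlap (-0.35, edgeR adjusted p 0.131, and 0.000427 without replicate 1 with glutamine). Of 8 death genes linked to DDIT3, 1 was higher and 2 were lower (median -0.39, over genes of opposing action). The higher one was PMAIP1, which promotes apoptosis, at 15.3, 4.76 and 5.68 CPM with glutamine and at 26.6, 30.9 and 28.7 without (1.74, edgeR adjusted p 0.0724), and the lower ones were BCL2L11 (-0.57), which promotes it, and BCL2 (-0.41), which blocks it. In each of these 3 genes replicate 1 with glutamine was the library of its group nearest to those without. Without that library edgeR called 7 immediate early genes higher and 2 lower at an adjusted p under 0.05, 3 p53 targets higher and 4 lower, and 1 death gene higher and 5 lower, beside 22.3% of all genes higher and 19% lower.

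**Figure D4:**
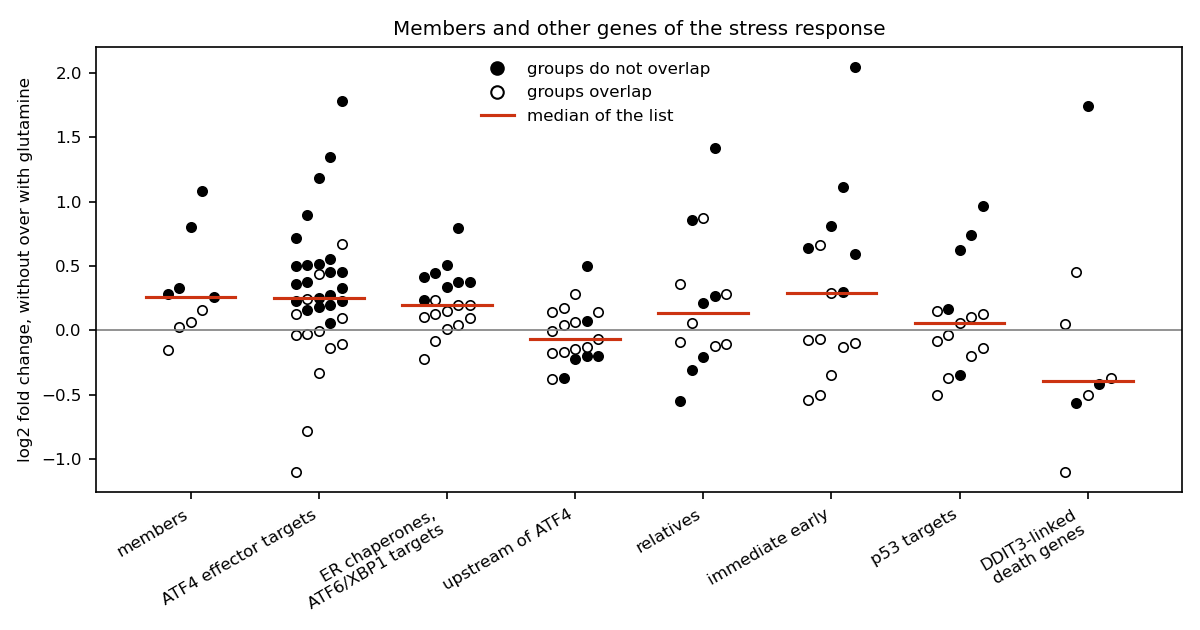
Log2 fold change (vertical axis, without over with glutamine) of the 9 regulators tested and of the genes tested on each other list. Filled points are genes whose groups do not overlap, and red bars are medians. The medians of the regulators (0.26) and of the ATF4 effector targets (0.25) are above 0. That of the DDIT3-linked death genes, which are of opposing action and partly shared with other lists, is below it (-0.39).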

How the data were processed

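The authors deposited raw counts per Ensembl gene. Per the submitters' processing notes, the tools included Trim Galore, cutadapt, FastQC, STAR 2.5.2b and DESeq2 on GRCh38. The counting program, annotation and strand setting are not given in the sources used here. Per the labels' protocols, libraries were stranded and single-end.

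Columns were matched to samples through each description. Symbols and lengths came from GENCODE 29, which matched 56531 of 60107 identifiers. Counts were tested with edgeR 4.0.16 (quasi-likelihood, legacy = FALSE, TMM, filterByExpr, group only) in R 4.3.3, with Benjamini-Hochberg adjustment over 22613 genes. A standard error is the absolute log2 fold change divided by the square root of F. The script was tested on simulated data. Alternatives included DESeq2 1.42.0 and limma 3.58.1.

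The members and lists were chosen with earlier results of these data known. Every member is named. From each other list up to 4 genes were named, those with the largest absolute log2 fold change among genes without overlap and with at least 1 CPM in the higher group. Marker lists are given by their summed levels. List genes outside this rule were chosen after their values were seen. They include DDIT4, VLDLR, HSPA5, XBP1, MARS, EIF2AK1, EIF2AK2, EIF2AK3, EIF2AK4, PPP1R15B, SESN1, CEBPA and CEBPD.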

Additional observations from a re-analysis of the deposited data

How the results depend on the processing

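Across 16 alternatives to the edgeR fit, the log2 fold changes of ATF4 (0.288 to 0.406), ATF5 (0.91 to 1.287), CEBPB (0.648 to 0.925), CEBPG (0.214 to 0.305), SESN2 (0.213 to 0.344) and PPP1R15A (0.102 to 0.238) kept their direction. Of 144 values for the members, 127 had the same sign and call, 8 passed the threshold that they had missed, and 9 reversed, in DDIT3, ATF3 and TRIB3. DDIT3 was -0.021 under upper quartile scaling and -0.042 to 0.115 with 1 library left out. With 1 library left out, ATF3 ran from -0.265 to 0.41 and TRIB3 from -0.43 to 0.08. The lowest value of each of these 3 came without replicate 1 with glutamine. With 1 library left out, list medians ran from -0.16 to 0 upstream of ATF4 and from -0.019 to 0.157 for relatives of the members. The immediate early median fell to 0.108 without replicate 2 with glutamine, and the death gene median to -0.532 without replicate 1 with glutamine. The cause was not tested.

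The members called numbered 0 in edgeR, 3 with DESeq2 (ATF4, ATF5 and CEBPB) and 0 to 5 with 1 library left out. The highest count came without replicate 1 with glutamine. At an adjusted p under 0.1 the count of 5 was 3 to 5 under the other scalings, filters and tools, and 0 with the replicate block, where 0% of all genes passed. Over all genes the count of 1 became 0 under upper quartile scaling, library size only, limma-voom and legacy = TRUE, 2 with no filter, 3030 with DESeq2, and 0 to 9573 with 1 library left out. Over all genes, same-numbered libraries did not deviate together (correlations of deviations -0.021, 0 and 0.028), which does not settle whether they were paired. With the replicate block 0 genes and 0 members were called. The median over all genes shifted by -0.044 under upper quartile scaling and by less under the others.

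With the longest transcript as the length, levels with and without glutamine became 78.9 and 99.4 CPM per kilobase for ATF4, 6.84 and 14.5 for ATF5, 2.83 and 2.95 for ATF3, 6.15 and 6.25 for DDIT3, 17.7 and 21.2 for CEBPG, 12.9 and 14.4 for PPP1R15A and 2.21 and 1.99 for TRIB3.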
